A study of Arabidopsis thaliana with 2 samples.

Results

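Pseudogene loci of Arabidopsis thaliana were examined for their transcript signal in seedlings of the ros1-1 mutant and of the wild type. They are the array's probe sets with 1 gene whose biotype in the TAIR10.1 gene table is a pseudogene class. The rule took 989 loci of the 13286 loci with a single-gene probe set, namely 923 of the biotype pseudogene and 66 of the biotype transcribed_pseudogene, against 12293 protein-coding loci. Each of the 989 had 1 probe set. The gene table holds 4849 pseudogene loci, so most of them are not represented here. Its symbols and synonyms held no word of a list of transposon words for any member (0 of 989). This search thus did not tell transposon-derived members from others, although names outside the word list may mark some. All members are called pseudogene loci throughout.

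In Arabidopsis annotation, pseudogenes include degenerate copies of ordinary genes and may include coding remnants of transposable elements. Many transposable elements are kept silent in plants by cytosine methylation, which is set and maintained by DNA methyltransferases and by a pathway guided by small RNAs. ROS1 is a DNA glycosylase that cuts methylated cytosines out of DNA and so opposes this methylation, also where it borders on transposable elements.

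Total RNA of whole seedlings aged 15 days was hybridised to Affymetrix 3′ expression arrays, with 1 array for ros1-1 and 1 array for the wild type C24_WT. The mutant is in the C24 background by the series' design text, and both groups grew on MS medium at 22 °C with 16 h of light and 8 h of darkness. How many seedlings went into an extract is not given in the sources used here. With no replicates no test was possible, and each difference describes these 2 arrays. The median signal over 22746 probe sets was 213 on the ros1-1 array and 216 on the C24_WT array. ROS1 was not analysed here, since the array annotation names no probe set for it. The gene table describes the accession Columbia, while the plants were C24.

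Most pseudogene loci gave very low signals on both arrays. Their median signal was 11.2 in ros1-1 and 10.9 in C24_WT, against 193 for protein-coding loci on each array. The central part of the pseudogene loci, from the 25th to the 75th percentile, lay between 3.46 and 35.7 in ros1-1 and between 3.23 and 31.5 in C24_WT. For protein-coding loci it lay between 53.8 and 516 in ros1-1 and between 53.1 and 520 in C24_WT. The 95th percentile of pseudogene loci was 88.3 in ros1-1 and 80.4 in C24_WT, which is under the median of protein-coding loci. In seedlings, RNA from few cells and little RNA per cell cannot be told apart.

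**Figure D1:**
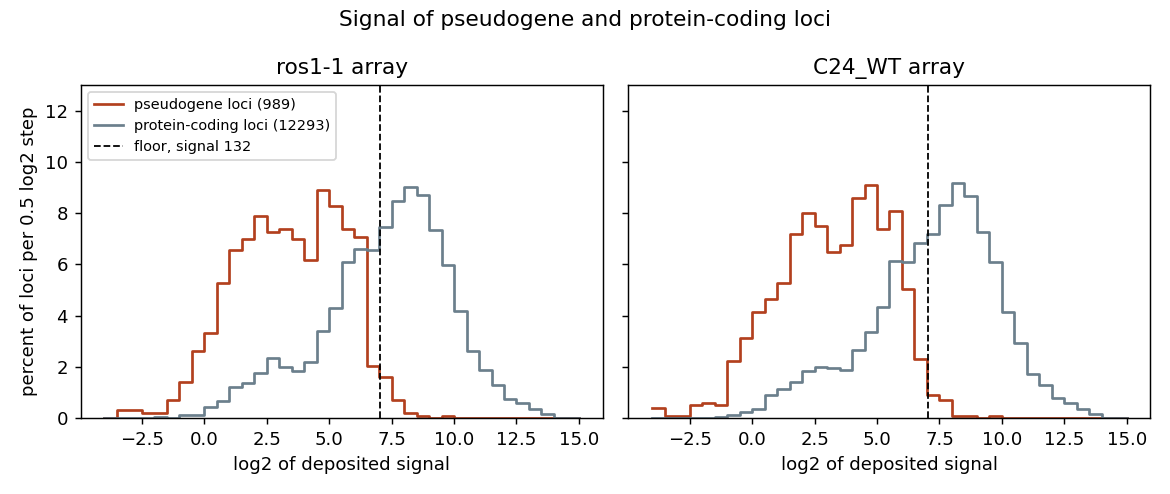
Distribution of log2 signal over 989 pseudogene loci (red) and 12293 protein-coding loci (grey), as percent of loci per step, on the ros1-1 array (left) and the C24_WT array (right). The dashed line is the floor at a signal of 132, and most of the pseudogene distribution lies to its left on both arrays.

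Background on these arrays was read from 27 probe sets for bacterial transcripts, whose signals reached at most 44.8 on the ros1-1 array and 39.7 on the C24_WT array. They were picked from the 64 controls by the names Bs-, DapX, LysX, PheX, ThrX and TrpnX. They are called the bacterial probe sets below. The other controls, which may include further bacterial transcripts, were not used. Whether such RNA was added to the samples is not stated in the sources. At or under the highest of these on both arrays were 760 of 989 pseudogene loci, or 76.8%, against 2314 of 12293 protein-coding loci, or 18.8%. For most pseudogene loci the signal was therefore in the range of these 27 probe sets.

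A signal of 132, the 40th percentile of all values of both arrays, served as the floor. A locus counted as measured when at least 1 array reached it. Measured were 26 of 989 pseudogene loci, or 2.63%, against 7420 of 12293 protein-coding loci, or 60.4%. By array, 25 pseudogene loci reached the floor in ros1-1 and 18 in C24_WT, or 2.53% and 1.82% of them. For protein-coding loci the shares were 58.2% and 58.0%. Of the pseudogene loci, 17 reached it on both arrays and 963 on neither.

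The 66 loci annotated as transcribed pseudogenes, a class that RefSeq gives to pseudogenes with transcript records, were brighter than the rest. Their median signal was 23.7 in ros1-1 and 28.2 in C24_WT, against 10.6 and 9.92 for the biotype pseudogene. Measured were 6 of 66, or 9.09%, against 20 of 923, or 2.17%. Most transcribed pseudogenes, 60 of 66, still lay under the floor on both arrays.

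The name endings _s_at and _x_at mark probe sets that may also bind related sequences. They made up a larger part of the pseudogene loci, with 113 and 78 of 989, than of the protein-coding loci, with 53 and 31 of 12293. The measured share of pseudogene loci was similar among designs, at 2.51% of 798 plain _at probe sets, 2.65% of _s_at and 3.85% of _x_at probe sets. Among protein-coding loci it was 60.5% with plain _at probe sets, 35.8% of 53 with _s_at and 29.0% of 31 with _x_at probe sets. By chromosome, the measured pseudogene loci were 5 of 193 on chromosome 1, 4 of 298 on chromosome 2, 7 of 207 on chromosome 3, 5 of 174 on chromosome 4 and 5 of 117 on chromosome 5.

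The brightest pseudogene locus was AT4G22450, with a signal of 810 in ros1-1 and 796 in C24_WT. It is read by an _s_at probe set, so its signal may be shared with related sequences. AT4G08220 followed with 413 in ros1-1 and 507 in C24_WT. AT5G34920, again with an _s_at probe set, had 328 in ros1-1 and 342 in C24_WT. These 3 loci were also the 3 that remained measured with the floor at the 60th percentile, a signal of 325.

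Below them, signals were lower. AT2G24160, the brightest transcribed pseudogene, had a signal of 266 in ros1-1 and 243 in C24_WT. AT1G43590 had 235 in ros1-1 and 240 in C24_WT, and AT1G80020 had 233 in ros1-1 and 176 in C24_WT. For AT2G24160 and AT1G80020 the ros1-1 array was the higher, while AT1G43590 was nearly equal on both.

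A further group of the 12 brightest had signals of about 150 to 230. AT3G14800 had 194 in ros1-1 and 216 in C24_WT. AT5G50315 had 190 in ros1-1 and 211 in C24_WT. AT5G20880 had 205 in ros1-1 and 194 in C24_WT. These signals differed by less than 1.5-fold between the arrays. AT4G14610, a transcribed pseudogene, had 187 in ros1-1 and 193 in C24_WT. AT3G43510 had 199 in ros1-1 and 167 in C24_WT. AT3G07280, also a transcribed pseudogene, had 150 in ros1-1 and 229 in C24_WT, the largest difference of any pseudogene locus measured on both arrays.

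**Figure D2:**
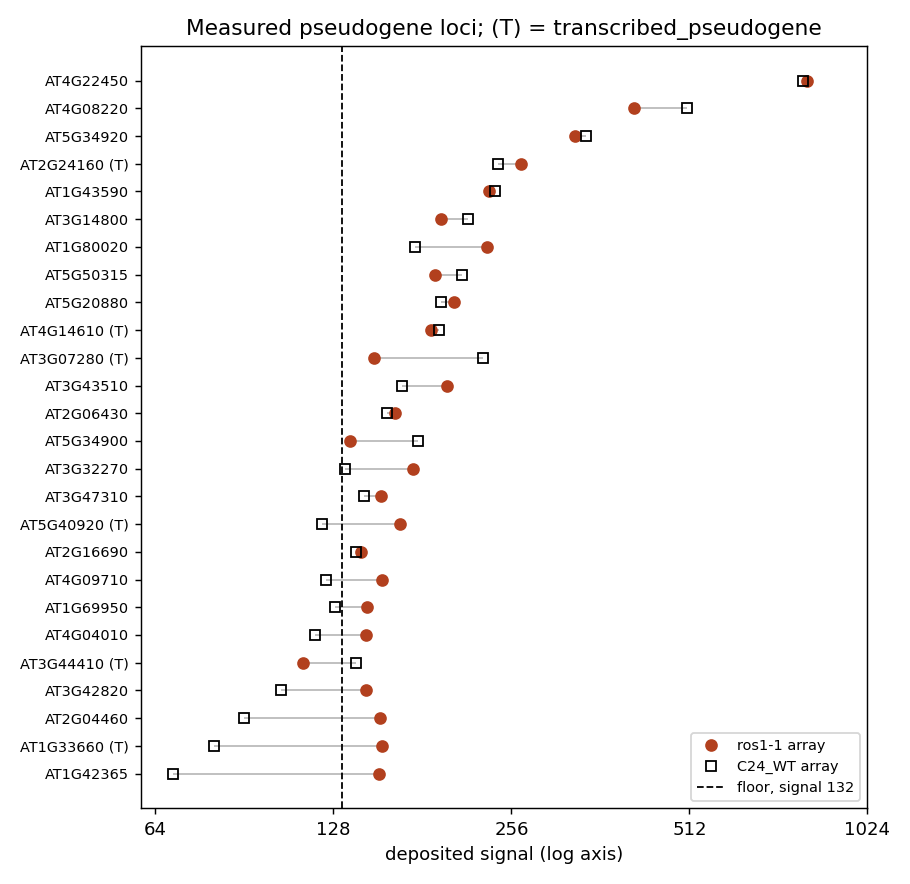
Signals of the 26 measured pseudogene loci on the ros1-1 array (filled circles) and the C24_WT array (open squares), ordered by their geometric mean on a log axis, with the floor of 132 dashed. AT4G22450 stands apart at 810 in ros1-1 and 796 in C24_WT, and the lowest rows, down to AT1G42365 at 153 in ros1-1 and 68.5 in C24_WT, cross the floor.

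With signals under the floor raised to it, none of the 26 measured pseudogene loci differed by 2-fold between the arrays. Of all 7446 measured loci, 12 had at least 2-fold more signal in ros1-1 and 15 at least 2-fold less, or 0.161% and 0.201%, together 0.363%. At 1.5-fold on the same floored scale, 0 pseudogene loci were higher and 1 was lower, against a background of 1.75% higher and 1.96% lower over all measured loci, together 3.71%. The locus was AT3G07280, 1.53-fold lower in ros1-1. Raising values set part of this outcome in advance: 2-fold could be reached only with a signal of at least 2 times the floor. Among members, only AT4G22450, AT4G08220, AT5G34920 and AT2G24160 had such a signal, so the others could not be counted. Mean signals of 132 to 159 held 13 of the 26 pseudogene loci and 732 protein-coding loci. In this range no locus could pass 1.5-fold, and 0% of the protein-coding loci did. These counts therefore say little about the dimmer members.

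The same 26 loci were counted by their deposited signals, with no value raised, as an alternative added after seeing the data. AT1G42365 was then at least 2-fold higher in ros1-1 and 0 loci were at least 2-fold lower, or 3.85% and 0%. The background was 0.349% and 0.483% over all measured loci, and 0.760% and 1.42% for protein-coding loci weighted to the same signals. At 1.5-fold, 3 were higher, namely AT1G42365, AT1G33660 and AT2G04460, and 1 was lower, AT3G07280. These are 11.5% and 3.85% of the 26, against 2.83% and 2.90% over all measured loci and 7.16% and 6.66% for protein-coding loci of the same signals. The C24_WT signals of the 3 higher loci lay between 68.5 and 90.2, under the floor. These 3 loci thus counted as measured only through their ros1-1 signals, the side on which they are higher.

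The log2 ratio of ros1-1 over C24_WT, with signals under the floor raised to it, ran from -0.61 to 0.40 over the 26 loci. Its median was 0.08 and its SD 0.23, against a median of -0.01 and an SD of 0.27 over all 7446 measured loci. As a guide to measurement error, different probe sets of the same gene, in 61 genes, deviated from each other's mean ratio with an SD of 0.19. Of the 26 ratios, 17 were above 0 and 9 below. Among the 17 loci that reached the floor on both arrays, 9 were higher and 8 lower in ros1-1, with a median of 0.03.

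On both arrays, the pseudogene loci highest in ros1-1 over C24_WT were AT1G80020 with a log2 ratio of 0.40, AT3G32270 with 0.39 and AT3G43510 with 0.25. AT3G32270 had signals of 175 in ros1-1 and 134 in C24_WT. They were followed by AT2G24160 at 0.13, AT3G47310 at 0.09 and AT5G20880 at 0.07. AT2G06430 was at 0.04 and AT2G16690 at 0.03. In the other direction, AT3G07280 had -0.61, AT5G34900 -0.38 and AT4G08220 -0.30. AT5G34900 had signals of 137 in ros1-1 and 178 in C24_WT, from an _x_at probe set. AT3G14800 and AT5G50315 both had -0.15, and AT5G34920 had -0.06, AT4G14610 -0.05 and AT1G43590 -0.03. Of these 16 ratios, those of 6 loci were larger in size than the scatter of 0.19, and that of AT3G07280 was the largest. The share of all measured loci past 0.19 was not counted, and the SD of their ratios was 0.27. The scatter came from probe sets on the same 2 arrays, so it leaves out variation between plants and between arrays. It was not matched on signal either. Protein-coding loci with mean signals of 132 to 159, 159 to 206 and 206 to 261 had SDs of 0.23, 0.35 and 0.31.

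**Figure D3:**
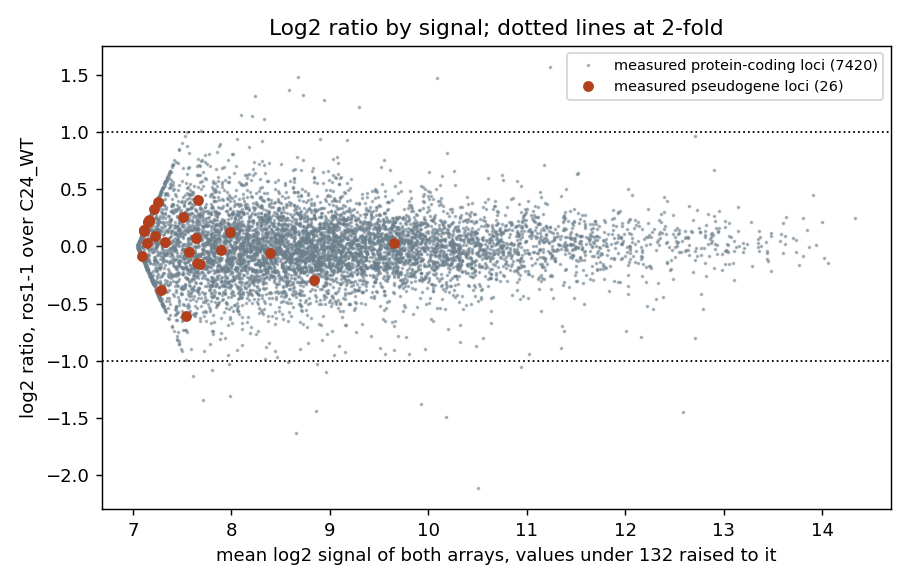
Log2 ratio of ros1-1 over C24_WT against the mean log2 signal of both arrays, for 26 measured pseudogene loci (red) and 7420 measured protein-coding loci (grey), with values under 132 raised to it. The pseudogene loci lie between -0.61 and 0.40, inside the dotted lines at 2-fold and mostly at the dim end. Raising values keeps loci at the dim end inside these lines.

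Signal was taken into account by setting the pseudogene loci beside protein-coding loci of the same signal, in 10 bins of mean signal over all measured loci. The lowest bin, with mean signals of 132 to 159, held 13 of the 26 pseudogene loci and 732 protein-coding loci, and the next, up to 206, held 8 and 736. In the lowest bin the median log2 ratio was 0.14 for pseudogene loci and 0.01 for protein-coding loci, and in the next it was 0.00 and 0.00. Weighted to the bins of the pseudogene loci, protein-coding loci had a median of 0.00, an SD of 0.28 and a share of 0.145% at least 2-fold different. The pseudogene loci had an SD of 0.23 and a share of 0%. At 1.5-fold the shares were 3.85% of pseudogene loci, which is the single locus AT3G07280, and 3.90% of protein-coding loci. These floored values narrow the spread of dim loci in both classes, and most of the 26 could not reach 2-fold on this scale.

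For 9 pseudogene loci 1 array was under the floor and the ratio is a bound. Of these, 8 reached the floor in ros1-1 alone and 1 in C24_WT alone, whereas for protein-coding loci the numbers were 286 and 262. The split of the pseudogene loci was again 8 and 1 after quantile normalization and after lowess took out an intensity trend, and 9 and 1 after median centring. Protein-coding loci split 284 and 267 after quantile normalization, 285 and 266 after lowess, and 299 and 246 after median centring. Lowering the floor to the 25th percentile gave 47 and 35 pseudogene loci, a more even split over more loci. Protein-coding loci then split 364 and 331.

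The largest bounds among these were small. AT5G40920, a transcribed pseudogene, had 166 in ros1-1 and 122 in C24_WT, at least 1.26-fold higher. AT1G33660, also a transcribed pseudogene, had 155 in ros1-1 and 80.5 in C24_WT, at least 1.17-fold higher. AT4G09710 had 154 in ros1-1 and 124 in C24_WT, also at least 1.17-fold higher. Such bounds follow from ros1-1 signals just above the floor. AT2G04460 had 153 in ros1-1 and 90.2 in C24_WT, at least 1.16-fold higher. AT1G42365 had 153 in ros1-1 and 68.5 in C24_WT, at least 1.16-fold higher. AT3G44410, a transcribed pseudogene, was the 1 locus with C24_WT above the floor, at 114 in ros1-1 and 140 in C24_WT, at least 1.06-fold lower in ros1-1.

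The loci nearest to the floor show how narrow the line between measured and unmeasured was. Just above it on their brighter array were AT3G44410, AT2G16690 with 142 in ros1-1 and 140 in C24_WT, AT3G42820 with 145 in ros1-1 and 104 in C24_WT, and AT4G04010 with 145 in ros1-1 and 119 in C24_WT. Just under it were AT2G05200 with 131.6 in ros1-1 and 52.4 in C24_WT, and AT2G14650 with 129 in ros1-1 and 91.9 in C24_WT. AT5G36270 had 127.9 in ros1-1 and 109 in C24_WT, and AT2G17910 had 126 in ros1-1 and 106 in C24_WT. In 7 of these 8 loci the ros1-1 signal was the higher, at AT2G16690 by little. Protein-coding loci equally near the floor were not counted, so this number has no share to be set against.

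With the floor lowered to the 25th percentile, a signal of 54.4, there were 182 measured pseudogene loci. Of these, 4 had a signal at least 2-fold higher in the ros1-1 array and 0 at least 2-fold lower, against a background of 0.422% higher and 0.474% lower over 9711 measured loci. In either direction these were 2.20% of pseudogene loci, against 1.39% of protein-coding loci weighted to the same signals. The 4 were chosen after their values were seen. AT2G05200 had 131.6 in ros1-1 and 52.4 in C24_WT, and AT3G17110, a transcribed pseudogene, had 123 in ros1-1 and 49.7 in C24_WT. AT2G20460 had 117 in ros1-1 and 39.9 in C24_WT, and the last was AT1G42365. The ros1-1 signals of these loci lay above the bacterial probe sets, and their C24_WT signals were between 39.9 and 68.5, near the highest bacterial values. All but AT1G42365 were measured at this floor only through their ros1-1 signals. At 1.5-fold, 13 pseudogene loci were higher and 4 lower, or 7.14% and 2.20%, against a background of 3.56% and 3.51%. In either direction these were 9.34% of pseudogene loci, against 11.5% of protein-coding loci weighted to the same signals. The median log2 ratio of the 182 was 0.11, against 0.02 for protein-coding loci weighted to the same signals.

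The dim pseudogene loci were also described without a floor, over those with a geometric mean signal of 32 or more and under 132, a range set after the data had been seen. In this range 137 of 222 pseudogene loci, or 61.7%, had a higher deposited signal in ros1-1, against 1495 of 2867 protein-coding loci, or 52.1%. The median log2 ratio was 0.16 for pseudogene loci and 0.03 for protein-coding loci, beside SDs of 0.63 and 0.57. At least 1.5-fold higher in ros1-1 were 49 of the 222, or 22.1%, and at least 1.5-fold lower 18, or 8.11%, against 13.8% and 11.999% of the protein-coding loci. The classes were not matched on signal here: 153 of the 222 but 1226 of the 2867 had mean signals of 32 to 64. From 64 up to 132, 10 of 69 pseudogene loci were at least 1.5-fold higher and 1 at least 1.5-fold lower. These are 14.5% and 1.45%, against 9.51% and 8.65% of the protein-coding loci. The share of pseudogene loci higher in ros1-1 was 59.0% after quantile normalization, 63.96% after median centring and 58.6% after removal of the intensity trend. Protein-coding loci were at 50.1%, 54.3% and 49.6% under the same scalings.

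Higher in ros1-1 were 27 of 45 dim pseudogene loci on chromosome 1 and 54 of 81 on chromosome 2. They were 20 of 34 on chromosome 3, 17 of 29 on chromosome 4 and 19 of 33 on chromosome 5. Protein-coding loci were not split by chromosome, and all these loci share the same 2 arrays. By probe set design, 114 of 179 were higher among plain _at probe sets, 7 of 14 among _s_at and 16 of 29 among _x_at probe sets. Among the 27 bacterial probe sets, 16 were higher in ros1-1, with medians of 8.46 in ros1-1 and 5.54 in C24_WT. Probe sets with no gene in the annotation were higher in ros1-1 in 810 of 1568 cases, or 51.7%. The part of array background in the share of dim pseudogene loci higher in ros1-1 was not tested. Between dimmer signal steps the direction varied. At mean signals under 4, 58.6% of 266 pseudogene loci were higher in ros1-1, at 4 to 8 it was 47.7% of 174, at 8 to 16 it was 50.3% of 165 and at 16 to 32 it was 55.6% of 142. The SD of the unfloored log2 ratio lay between 1.25 and 1.82 in these steps, so single loci there carry little information.

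**Figure D4:**
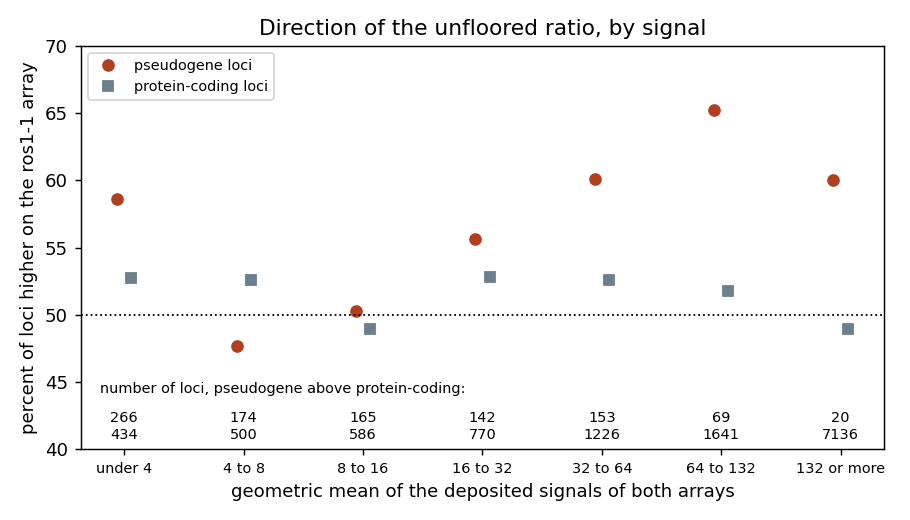
Percent of loci with a higher deposited signal on the ros1-1 array, by geometric mean signal of both arrays, for pseudogene loci (red circles) and protein-coding loci (grey squares), with the numbers of loci printed below the points. The vertical axis starts at 40. Pseudogene loci lie at 60.1% from 32 to 64 and 65.2% from 64 to 132, against 52.6% and 51.8% of protein-coding loci.

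Over all 989 pseudogene loci, log2 ratios without a floor had a median of 0.12 and an SD of 1.53, and 550, or 55.6%, were higher in ros1-1. For protein-coding loci the median was 0.00 and the share 50.2%. The signals of the 2 arrays had a rank correlation of 0.76 over pseudogene loci and 0.98 over protein-coding loci. It was 0.74 over the 963 pseudogene loci under the floor on both arrays, against 0.83 over 4873 such protein-coding loci. These correlations are across loci that share both arrays, and probe sequence affects both arrays alike.

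In gene order, pseudogene loci lay among other pseudogene loci. Among the 20 nearest protein-coding or pseudogene loci of the gene table, a median of 11 were pseudogenes around pseudogene loci, against 1 around protein-coding loci. Both immediate neighbours were pseudogenes for 423 of 989 pseudogene loci, or 42.8%, against 1.31% of protein-coding loci. The measured pseudogene loci were more often found among protein-coding genes. Their median number of pseudogenes among 20 neighbours was 4, against 12 for those under the floor. Measured were 13 of 243 pseudogene loci with no pseudogene as immediate neighbour, or 5.35%, against 3 of 423 with pseudogenes on both sides, or 0.709%.

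The share of measured loci was lower where pseudogenes were denser, in both classes. It was 5.97% of 67 pseudogene loci with 0 pseudogenes among 20 neighbours, 4.89% of 225 with 1 to 5, 2.47% of 162 with 6 to 10 and 1.31% of 535 with 11 to 20. For protein-coding loci the shares in the same order were 64.3%, 58.5%, 46.1% and 32.5%. In the group without pseudogene neighbours the median signal of pseudogene loci was 34.2 in ros1-1 and 28.9 in C24_WT, and in the densest group it was 8.70 in ros1-1 and 9.43 in C24_WT. Each group had pseudogene loci far less often measured than protein-coding loci. The ratio showed no such order: the median log2 ratios of measured pseudogene loci were -0.15, 0.13, -0.16 and 0.14, from 4, 11, 4 and 7 loci.

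**Figure D5:**
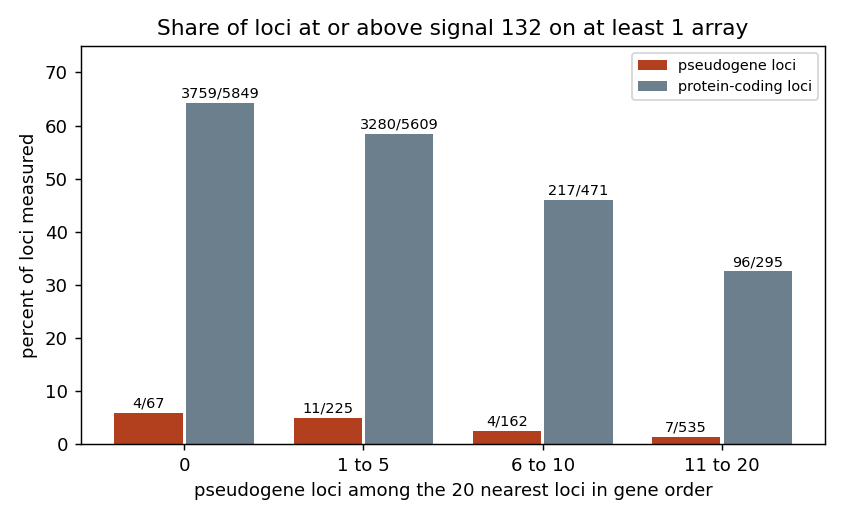
Percent of loci measured, which is at or above a signal of 132 on at least 1 array, for pseudogene loci (red) and protein-coding loci (grey), by the number of pseudogene loci among the 20 nearest loci in gene order. The fractions above the bars give measured loci over all loci, from 4 of 67 to 7 of 535 pseudogene loci.

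Of 16 protein-coding immediate neighbours of measured pseudogene loci with a probe set, 10 were measured, or 62.5%. This is near the 60.4% of all 12293 protein-coding loci. Around pseudogene loci under the floor it was 120 of 312, or 38.5%, where a gene next to 2 such loci was counted for each. Of the 10 measured neighbours, 1 differed by 1.5-fold or more, against 3.71% of all 7446 measured loci. With 10 neighbours a single locus cannot be told apart from that share. Next to AT5G50315, at a log2 ratio of -0.15, AT5G50310 had signals of 453 in ros1-1 and 730 in C24_WT, a log2 ratio of -0.69. Next to AT5G40920, at a bound of 0.33, AT5G40910 had 131 in ros1-1, just under the floor, and 189 in C24_WT, a bound of -0.52 in the opposite direction. Next to AT3G43510, the protein-coding gene AT3G43520 was bright, at 2363 in ros1-1 and 2462 in C24_WT, with a log2 ratio of -0.06.

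Overlap in the gene table with a protein-coding locus was found for 2 of 26 measured pseudogene loci and for 18 of 963 under the floor, or 7.69% and 1.87%. The 2 were AT3G07280, which overlaps AT3G07270 and AT3G07273, and AT5G50315, which overlaps AT5G50320. Strand was not considered, and AT3G07273 and AT5G50320 had no single-gene probe set. The signals of the 2 pseudogene loci may not be of the pseudogene alone. AT3G07270, a neighbour that overlaps AT3G07280, had signals of 1079 in ros1-1 and 1033 in C24_WT, a log2 ratio of 0.06 against -0.61 for AT3G07280. Among measured pseudogene loci, AT5G34900 and AT5G34920 lay closest together, with 4 loci between them in gene order. Both have probe sets that can take signal from related sequences, and both were lower in ros1-1.

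A symbol other than the locus code was held by 5 pseudogene loci, and 0 of them were measured. They were named outside the rule for named loci. CYTOSLEEPER, AT1G15300, had signals of 44.3 in ros1-1 and 42.5 in C24_WT. CYP71B27 and CYP51G2, pseudogene members of the cytochrome P450 family of oxidative enzymes, had 65.1 and 76.4 in ros1-1 and 60.7 and 43.9 in C24_WT. ATPP2-B3 had 51.6 in ros1-1 and 53.9 in C24_WT. RSU1, AT3G48130, had 2.65 in ros1-1 and 68.6 in C24_WT, and as both values are under the floor no fold is given.

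Among 5 loci listed as silenced by DNA methylation, 2 had a named probe set and both were under the floor. The pseudogene locus AT4G08680 had signals of 11.95 in ros1-1 and 5.81 in C24_WT, from an _s_at probe set, in the range of the bacterial probe sets. QQS, a protein-coding gene of that list, had 36.3 in ros1-1 and 29.2 in C24_WT. Of 17 listed genes for DNA methylation, silencing and demethylation, 1 had a named probe set. This was DME, a DNA glycosylase related to ROS1, at 246 in ros1-1 and 340 in C24_WT, a log2 ratio of -0.46.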

How the data were processed

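The deposited values, linear intensities of each probe set, came from the authors' MAS5 summary, per the submitters' processing notes. The sources used here name no version or scaling target. The trimmed mean, with 2% removed from each end, was 500.04 on both arrays. Of 22810 probe sets, 64 controls were set aside; the platform annotation gave 1 gene for 13513 probe sets, several genes for 503 and no gene for 8730. The gene table held 13436 of the 13513 and served for names, biotypes and gene order. A locus took its brightest probe set. Signals under the floor of 132 were raised to it and ratios were log2 of ros1-1 over C24_WT. Named loci were the 12 brightest, the 8 largest ratios in each direction on both arrays, the 5 largest bounds in each direction, loci at least 2-fold different, the 4 nearest the floor on each side, and list members. The members, lists and rules were chosen with earlier results of these data known. Alternatives were floors at the 25th and 60th percentile, quantile normalization, median centring, lowess with a span of 0.3, an offset, thresholds of 1.5-fold and 3-fold, plain _at probe sets, the mean of probe sets and 20 signal bins. Steps were tested on simulated data with 1 noise level for all signals. Ratios were set only in probe sets brighter than most measured pseudogene loci, so dim signals were not covered. Python 3.11.15 with numpy 2.4.6, pandas 2.3.3 and statsmodels 0.14.6 was used. The number of arrays limits the precision of every value.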

Additional observations from a re-analysis of the deposited data

How the results depend on the processing

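The number of measured pseudogene loci followed the floor: 182 loci with a floor set to the 25th percentile and 3 with the 60th, against 26 as reported, and 20 to 27 under the other alternatives run. At least 2-fold higher in ros1-1 were 4 loci at the lower of these floors, 1 by the deposited signals of the 26 loci, added after seeing the data, and 0 under each other alternative run. At least 2-fold lower were 0 loci at each floor and scaling, and 1 was lower with a threshold of 1.5-fold. The median log2 ratio of measured loci ran from -0.06 over the 3 loci at the higher floor, a change of sign from 0.08 as reported, to 0.13 with plain _at probe sets. With biotype pseudogene alone, an alternative added after seeing the data, 20 of 923 loci were measured. The share of protein-coding loci of the same signal at least 2-fold different was 0.145% with 10 bins and 0.146% with 20. No paired analysis was possible because each genotype had 1 array. Low signal limits these results: 963 of 989 pseudogene loci lay under the floor on both arrays.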

Other observations

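Protein-coding loci were also divided by their immediate neighbours in gene order. Measured were 43 of 161 protein-coding loci with pseudogenes on both sides, or 26.7%, and 543 of 1142 with a pseudogene on 1 side, or 47.5%, against 6834 of 10990 with none, or 62.2%. The median log2 ratio of ros1-1 over C24_WT was -0.02, 0.00 and -0.01 in these groups, with SDs of 0.33, 0.30 and 0.27. At least 1.5-fold different in either direction were 9.30%, 5.34% and 3.54% of the measured loci, against 3.71% over all 7446 measured loci. At least 2-fold higher or lower were 0 and 0, 1 and 1, and 11 and 14 loci. These groups were not matched on signal, and the 9.30% rests on 43 measured loci. Protein-coding loci with 0, 1 to 5, 6 to 10 and 11 to 20 pseudogenes among 20 neighbours had SDs of 0.26, 0.27, 0.26 and 0.28. Dim protein-coding loci, with mean signals of 32 or more and under 132, were higher in ros1-1 in 93 of 203 cases where 6 to 20 of 20 neighbours were pseudogenes, or 45.8%, and in 52.6% of 2663 elsewhere. Dim pseudogene loci were higher in ros1-1 in 59.6% of 136 and 65.1% of 86 in the same kinds of neighbourhood.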
